A study of Homo sapiens with 24 samples.

Results

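MV411 is an established human acute myeloid leukaemia line that carries a fusion of the MLL gene (KMT2A) and, in FLT3, an internal tandem duplication. It was profiled with MI-503 and AC220 together and with AC220 alone. The comparison set 3 libraries of the combination (Combo, MI-503 at 2.5 µM for 3 days with AC220 at 3 nM for 24 h) against 3 libraries of AC220 alone (3 nM for 24 h). These were 6 of the 24 libraries of the series, which covers 3 leukaemia lines in 8 groups. All genes with a normalised value of at least 10 in at least 3 of the 12 MV411 libraries were tested, which left 14421 of the 25680 genes in the table. The other MV411 libraries, 3 with MI-503 alone (2.5 µM for 3 days) and 3 with DMSO, show the change that MI-503 gave without AC220. Every Combo and AC220 library had received the FLT3 inhibitor, and by the labels the exposure to MI-503 was longer than that to AC220. The labels do not say what the AC220 cells received during the days before AC220, and they call the triplicates biological without saying how cultures were kept apart, so p-values measure the spread between these libraries.

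MLL proteins are histone methyltransferases that reach many of their target genes through menin, the product of MEN1. MLL fusions keep a block of developmental regulators switched on, among them HOXA9, MEIS1, PBX3 and MEF2C, which hold myeloid cells in an immature state. MI-503 is a small molecule that occupies the MLL-binding pocket of menin, and AC220 (quizartinib) is a kinase inhibitor of FLT3, a receptor whose internal tandem duplication signals without ligand to STAT5, ERK and AKT.

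The Combo libraries held 23168887 to 25454953 reads in genes and the AC220 libraries 25280544 to 26596469. Combo replicate 1 stood apart most from its fellows, as the chi-square of its counts against those of Combo replicate 3, divided by the degrees of freedom, was 9.41, while the other pairs within the 4 groups gave 2.45 to 4.99. The 10 most abundant genes took 6.13% to 6.46% of reads in Combo and 5.21% to 5.39% in AC220. MEN1 itself had values of 951, 978 and 880 in Combo and 894, 1022 and 953 in AC220, and the groups overlapped (log2 fold change -0.03, limma, adjusted p = 0.699). The myeloid genes CD33, SPI1, CEBPA, CSF1R and LYZ were well expressed in all 6 libraries, which fits the labelled cell type. MPO and CD14, which also mark myeloid cells, were much lower. MPO had 136.3 to 160 in Combo and 114.5 to 151.6 in AC220, and CD14 had 22.57 to 28.49 and 0 to 1.919. Of genes that mark other cells, MS4A1 of B cells, EPCAM of epithelium, and HBB of red cells were at 0 in all 6 libraries. The T cell genes CD3D and CD3E did not exceed 1.13 in Combo or 0.995 in AC220. Other genes used as marks of such cells were expressed. Means in Combo and AC220 were 252 and 919 for ITGA2B, 156 and 121 for KRT8, and 2356 and 1023 for NKG7. Values were scaled so that the typical gene is equal between libraries, so they carry no measure of total RNA per cell, and in such bulk samples fewer cells of a type cannot be told apart from less RNA per cell.

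With MI-503 beside AC220, a large part of the transcriptome moved by small amounts and a smaller part strongly. With limma on log2(value + 1) and a Benjamini-Hochberg threshold of 0.05, 8007 genes (55.5% of those tested) differed between Combo and AC220. Of these, 3954 (27.4%) were higher and 4053 (28.1%) were lower in Combo. The median absolute change of the called genes was 0.38 on the log2 scale, and 1068 genes (7.41%) were both called and at least 2-fold apart, 655 of them higher and 413 lower. At least 4-fold apart were 96 higher and 61 lower genes. The 3 Combo values lay wholly above or below the 3 AC220 values for 8524 genes (59.1%), and the median change over all genes was -0.01.

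The MLL-fusion programme was lower in Combo than in AC220 almost throughout. Of 21 tested targets outside the HOX clusters, 19 were lower and 2 were higher, beside 28.1% of all genes called lower. Their median log2 fold change was -0.78 against -0.01 over all genes. The cyclin gene CCNA1 (0.65) and ZC3H12C (0.86) were the 2 that were higher. In the HOXA cluster, HOXA9 and HOXA10 were lower. The read-through gene HOXA10-HOXA9 covers both, and its values of 706, 758 and 752 in Combo and 1979, 1792 and 1984 in AC220 are close to those of HOXA9, so reads may be shared. Another 8 HOXA genes were below the value minimum.

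MEF2C, a MADS-box transcription factor that supports the self-renewal of MLL-fusion cells, had values of 672, 742 and 699 in Combo, against 4884, 4795 and 4577 in AC220. All Combo values were far below all AC220 values, and the log2 fold change was -2.75 (SE 0.057, limma, adjusted p = 9.45e-21). MEIS1, the homeodomain partner of HOXA9, stood at 690, 808 and 679 in Combo and at 2853, 2895 and 2964 in AC220. Its 2 groups did not overlap, with a fitted ratio of 0.249 (limma, adjusted p = 2.10e-18). PBX3, the third member of that DNA-binding trio, had 1052, 1026 and 1023 in Combo and 3415, 3300 and 3290 in AC220, a change of -1.69. HOXA9 had 723, 775 and 770 in Combo and 2019, 1832 and 2034 in AC220, a change of -1.37. Neither gene had overlapping groups, and over the 4 regulators the ratio of Combo to AC220 lay between 0.148 for MEF2C and 0.386 for HOXA9.

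FLT3, the target of AC220 and itself a gene of the MLL programme, had values of 13157, 14271 and 14125 in Combo, against 28812, 29640 and 29909 in AC220. Its transcript was thus lower in every Combo library, with a log2 fold change of -1.09 (SE 0.040, limma, adjusted p = 1.86e-16). BCL2, which blocks mitochondrial apoptosis, stood at 900, 999 and 993 in Combo and 4041, 3956 and 4341 in AC220, a change of -2.09 (SE 0.049). CDK6, the D-cyclin kinase on which MLL-rearranged cells depend, had 3540, 3941 and 4278 in Combo and 14869, 13817 and 13921 in AC220, a change of -1.86 (SE 0.056). Both genes were lower in every Combo library. Smaller changes were seen for the transcription factors MYB (-0.76) and RUNX1 (-0.12) and for MYC (-1.02), whose values were 2888, 2726 and 2774 in Combo and 5894, 5652 and 5500 in AC220. KMT2A itself fell slightly to 5693, 5930 and 5780 in Combo, against 7826, 7940 and 7796 in AC220 (-0.44, limma, adjusted p = 1.65e-09). Among 13 genes of the menin and MLL complexes, 4 were lower and 2 higher, beside 28.1% and 27.4% of all genes. None of the 13 was more than 0.44 apart. Of 15 genes of the DOT1L and elongation complexes, 6 were higher and 4 lower, led by the elongation factor ELL2 (1.19) and the fusion-partner gene AFF1 (-0.80). Values per gene do not separate reads of intact KMT2A, or of an intact partner gene, from those of the fusion.

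**Figure D1:**
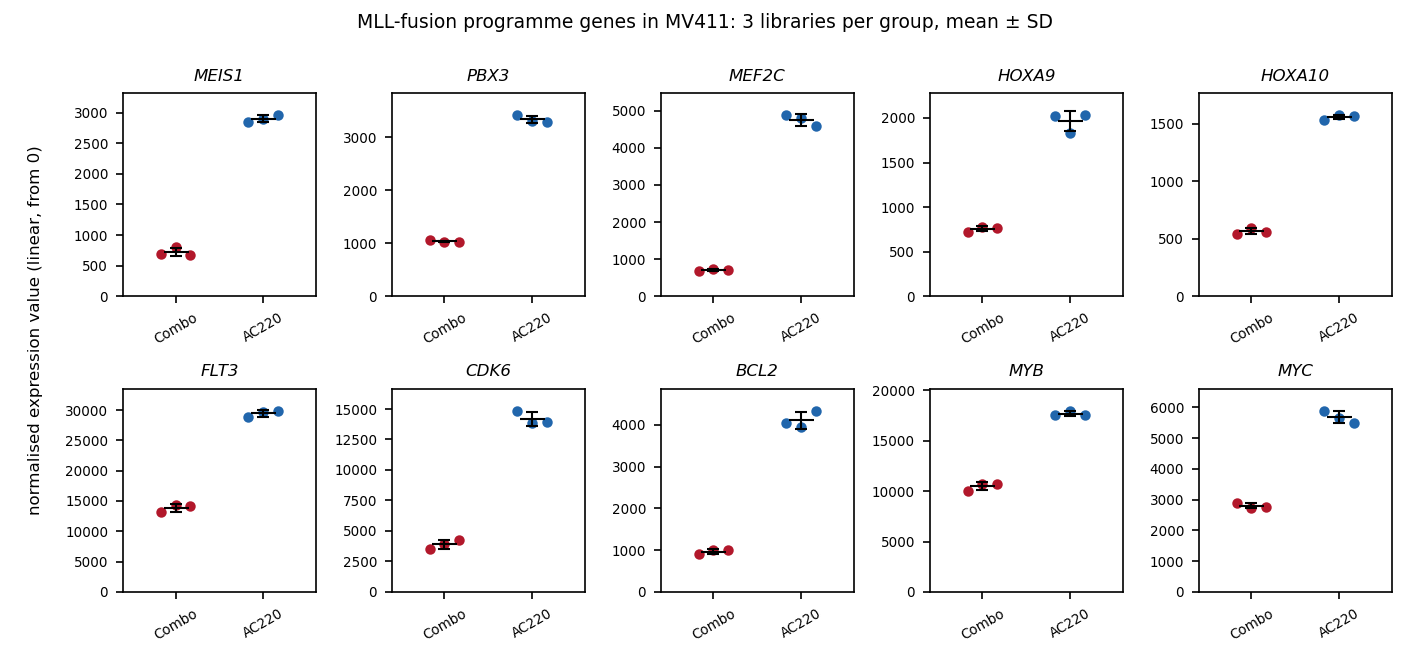
Normalised values (linear axis from 0) of 10 genes of the MLL programme in the 3 Combo and the 3 AC220 libraries of MV411, with each library as a point and the mean ± SD in black. In all 10 panels the Combo points lie below the AC220 points, by a log2 fold change of -0.76 for MYB to -2.75 for MEF2C.

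Several of the largest decreases among genes with a mean of at least 100 were in genes outside these lists. CSMD3, which codes for a large complement-control membrane protein, had values of 35.0, 31.5 and 52.3 in Combo and 1105, 1099 and 1071 in AC220 (log2 fold change -4.78, SE 0.129, limma, adjusted p = 8.60e-19). PAM (chromosome 5, 102754783 to 103031105, hg38), the enzyme that amidates peptide hormones, had 12.4, 17.3 and 17.4 in Combo and 220, 186 and 196 in AC220, a change of -3.60. Both genes were close to silent in Combo and clearly expressed in AC220. UGCG (chromosome 9, 111896814 to 111935369), the first enzyme of glycosphingolipid synthesis, stood at 395, 475 and 491 in Combo and 3680, 3575 and 3713 in AC220, a change of -3.01. BBX, an HMG-box gene, had 524, 567 and 635 in Combo and 4147, 4118 and 4096 in AC220, a change of -2.84. Among the other genes of this rank were the tissue factor gene F3 (-3.15), ARRDC4 (-2.45), the glutamine transporter SLC38A1 (-2.25), the sodium-proton exchanger SLC9A7 (-2.13) and the unannotated LOC101927497 (-4.46) and LOC339862 (-2.40). JMJD1C-AS1 (-2.68) lies on chromosome 10 within JMJD1C, which was also lower (-1.39), and as the sources do not say whether strand was used in counting, reads of the 2 cannot be told apart.

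Genes of mitosis were higher in Combo as a group. Of 30 tested, 27 were higher in Combo and 2 were lower, with a median log2 fold change of 1.03, whereas 27.4% of all genes were called higher. The 2 lower genes were the checkpoint genes BUB3 (-0.71) and MAD2L1 (-0.22), and PRC1 (0.08) was not called. UBE2C, the ubiquitin-conjugating enzyme of the anaphase-promoting complex, had values of 616, 541 and 499 in Combo and 176, 146 and 210 in AC220 (1.64, SE 0.091, limma, adjusted p = 3.40e-13). CDC20, an activator of the same complex, had 831, 811 and 854 in Combo and 281, 276 and 302 in AC220 (1.54, SE 0.052). AURKB, the kinase of the chromosomal passenger complex, had 414, 423 and 411 in Combo and 140, 148 and 141 in AC220 (1.53, SE 0.059). MKI67, the proliferation antigen Ki-67, had 4678, 4989 and 4726 in Combo and 1820, 1686 and 2042 in AC220 (1.38, SE 0.052). In all 4 genes every Combo library was above every AC220 library. The Combo values nevertheless stood well below those of cells without AC220: MKI67 averaged 4798 in Combo, 1850 in AC220, 16706 ± 660 with MI-503 alone and 17089 ± 442 in DMSO (SD, n = 3 each). Of the 30 genes, 28 had a Combo mean between the AC220 and the DMSO means, and the other 2 were below both.

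Genes of the cell cycle that peak in G2 and mitosis often carry 2 short elements near their start, the cell-cycle homology region (CHR, TTTGAA) and the CCAAT box, which the DREAM, B-MYB and NF-Y complexes are known to bind. The 160 bases before the start of CDC20 and MKI67 are shown, since both genes were higher here, from RefSeq (GRCh38.p14), on the strand of the gene, with both elements in capitals wherever either strand holds the letters. They lie at chr1:43358821-43358980 on the plus strand for CDC20 and chr10:128126424-128126583 on the minus strand for MKI67.
CDC20: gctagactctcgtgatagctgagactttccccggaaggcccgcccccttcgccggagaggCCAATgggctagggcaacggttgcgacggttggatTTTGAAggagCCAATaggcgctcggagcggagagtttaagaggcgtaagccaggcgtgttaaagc
MKI67: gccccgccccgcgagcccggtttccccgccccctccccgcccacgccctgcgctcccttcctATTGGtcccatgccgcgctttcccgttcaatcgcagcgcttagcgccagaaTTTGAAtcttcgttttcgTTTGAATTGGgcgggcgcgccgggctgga
CDC20 holds the CHR letters 65 to 60 bases before its start, between CCAAT boxes that begin 100 and 55 bases before it. MKI67 holds the CHR letters at 47 and 29 bases before the start, and the CCAAT letters, read on the other strand, at 98 and 24, where 1 base is shared with the nearer CHR. Over all 27305 RefSeq windows of 300 bases (250 before the start to 50 after it), 15.4% held TTTGAA and 35.7% held CCAAT on either strand. A share among the mitosis genes is not given, because windows were matched for 23 of the 30 (76.7%), under the 80% needed. Matches describe letters and not binding.

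Replication genes moved the same way with smaller amplitude and less uniformly. Of 35, 21 were higher and 7 lower (median 0.27), beside 27.4% of all genes called higher and 28.1% called lower. Thymidine kinase TK1 had values of 291, 236 and 262 in Combo and 139, 102 and 131 in AC220 (1.08, SE 0.089, limma, adjusted p = 3.84e-10), and the licensing factor CDT1 (0.84) and the GINS subunit GINS1 (0.91) followed. All 3 Combo values of TK1 were above the AC220 values. The lower members included the helicase subunits MCM6 (-0.50), MCM7 (-0.26) and MCM3 (-0.18) and the clamp PCNA (-0.26). Of 18 genes that restrain or drive entry into S phase, 11 were lower and the other 7 were not called. The lower ones included the inhibitors CDKN1B (-0.59), CDKN2B (-0.70) and CDKN1A (-0.46) as well as CDK6 and the cyclin gene CCND2 (-0.41). CDKN1B had 1578, 1621 and 1750 in Combo and 2606, 2356 and 2472 in AC220.

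The p53 targets were mostly lower and the apoptosis genes were mixed. Of 23 p53 targets, 18 were lower and 2 higher (median -0.26), beside 28.1% of all genes called lower and 27.4% called higher. The receptor gene EDA2R had values of 227, 234 and 221 in Combo and 495, 528 and 554 in AC220 (-1.21, SE 0.074, limma, adjusted p = 2.27e-12). MDM2, the ubiquitin ligase that restrains p53, had 2894, 3057 and 3201 in Combo and 5196, 4902 and 5656 in AC220 (-0.78), though it overlaps another expressed gene. Every Combo value of both genes was below every AC220 value. The BH3-only gene BBC3 (0.62) and the stress gene SESN2 (0.25) were the p53 targets that were higher. Among anti-apoptotic genes, 5 of 9 were lower, BCL2 and BCL2L10 (-1.02) most, and BCL2L2 (0.46) was the single one higher. Without Combo replicate 1, 3 of the 9 remained called lower. MCL1 (0.01) and BCL2L1 (-0.03) were not called. Of 14 BH3-only and effector genes, 5 were higher and 4 lower. BCL2L11, which codes for BIM, had 1222, 1180 and 1279 in Combo and 1012, 994 and 988 in AC220 (0.30, limma, adjusted p = 4.18e-05), a small difference that was nevertheless seen in every library.

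Phagocyte genes were higher in Combo, in some cases more than 10-fold. Of all genes 27.4% were called higher, against 21 of 23 tested monocyte and macrophage differentiation genes, whose median was 0.49. Of the 23, FCGR1A (-0.61) was lower and the scavenger receptor MSR1 was not called. Another 9 genes of the list of 32 were below the value minimum, among them CD163, MRC1, FCGR3A and VCAN. LYZ, which codes for lysozyme, was the most abundant of them, with values of 181590, 182140 and 183690 in Combo and 53388, 55297 and 59930 in AC220 (1.70, SE 0.043, limma, adjusted p = 2.69e-19). The integrin ITGAX (CD11c) had 4625, 4575 and 4439 in Combo and 2010, 1929 and 1784 in AC220 (1.25). Both genes were higher in each Combo library by a margin wider than the spread of either group. CD14, the lipopolysaccharide co-receptor, was barely expressed, with 27.1, 28.5 and 22.6 in Combo and 1.92, 0 and 0 in AC220. These rest on 74 reads in the Combo and 2 in the AC220 libraries, a ratio of 40.5 with an exact interval of 10.8 to 341 that covers counting error only. ITGAM (CD11b) had 502, 490 and 399 in Combo and 400, 386 and 345 in AC220, a change of 0.29 (limma, adjusted p = 0.00430) with groups that overlapped.

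Within the NADPH oxidase, which makes superoxide in phagocytes, the catalytic subunit CYBB had values of 2201, 2211 and 2277 in Combo and 210, 134 and 114 in AC220 (3.91, SE 0.129, limma, adjusted p = 2.83e-17). Its groups were far apart. The cytosolic subunit NCF4 was higher by 0.34, the GTPase RAC2 (-0.15) was lower, and the membrane subunit CYBA (-0.05) was not called. Of 8 oxidase genes, 3 were higher, 1 was lower and 4 were not called (median 0.08), beside 27.4% of all genes called higher. Of the calcium-binding S100 genes, S100A9 had 573, 468 and 405 in Combo and 62.4, 92.5 and 48.8 in AC220 (2.84), and S100A8 had 554, 548 and 497 in Combo and 112, 149 and 119 in AC220 (2.07). Together 7 of 10 S100 genes were higher and 2 were lower. Of 15 granule genes, 9 were higher and 5 lower, with elastase ELANE (1.10) and the eosinophil granule gene PRG2 (-1.45) at opposite ends and MPO (0.14) not called.

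Among the transcription factors of monocytes, 12 of 19 were higher and 4 lower (median 0.43), beside 27.4% and 28.1% of all genes. KLF4, a zinc-finger factor of monocytes, had values of 449, 437 and 446 in Combo and 164, 170 and 184 in AC220 (1.36), and CEBPB had 1115, 951 and 1070 in Combo and 404, 426 and 450 in AC220 (1.29). Neither gene had overlapping groups. SPI1 (0.35) and CEBPA (0.45) were modestly higher, whereas IRF4 (-0.66) and IRF8 (-0.31) were lower. In the progenitor and stem-cell list, 8 of 14 were lower and 3 higher, with SOX4 (-1.13), HHEX (-0.79) and IKZF1 (-0.49) lower and RUNX3 (0.79) higher.

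Receptors for microbial products formed part of the same picture. Of 19 sensing genes, 14 were higher and 2 lower (median 0.49), beside 27.4% of all genes called higher. TLR8, an endosomal receptor of single-stranded RNA, had values of 266, 297 and 329 in Combo and 37.4, 41.8 and 68.5 in AC220 (2.62, SE 0.192, limma, adjusted p = 5.40e-11). TLR7, its close relative, had 227, 299 and 288 in Combo and 96.9, 54.7 and 56.3 in AC220 (1.99), and the flagellin receptor TLR5 was higher by 2.24. No AC220 library reached a Combo library in TLR7 or TLR8. Of 16 NF-kB targets, 12 were higher and 3 lower, among them the neutrophil chemokine CXCL8, with 399, 481 and 505 in Combo and 120, 125 and 171 in AC220 (1.74). Of 17 haematopoietic growth factor receptors, 12 were higher and 4 lower. MERTK, the kinase through which macrophages take up dying cells, had 591, 566 and 548 in Combo and 127, 142 and 112 in AC220 (2.16), while IL7R (-1.59), FLT3 and KIT (-0.45) were lower. Interferon-response genes did not share this direction: 4 of 29 were higher, 8 lower and 17 not called. Of all genes, 27.4% were called higher and 28.1% lower, so the lower count was near the general share. IFITM1 (-1.31) was among the lower ones. The T and NK list held 1 called gene, NKG7 (1.20, means of 2356 in Combo and 1023 in AC220), and its summed level was 89.7 to 98.8 CPM in Combo and 40.5 to 43.2 CPM in AC220. Its part in these results was not tested, and the defining T cell genes were near 0 as given above.

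Genes of antigen presentation and the lysosome were also higher. All 9 tested MHC class II genes were higher (median 1.00), including the transactivator CIITA (0.73) and the invariant chain CD74 (0.55). Of 8 tested MHC class I genes, 6 were higher. Another 3 class II genes (HLA-DMA, HLA-DMB and HLA-DOA) and 4 class I genes (TAP1, TAP2, TAPBP and PSMB9) were below the value minimum. HLA-DQB1 had values of 3484, 3421 and 3325 in Combo and 1718, 1769 and 1642 in AC220 (1.00, SE 0.062, limma, adjusted p = 2.76e-12). Its groups were wholly apart, but HLA genes are polymorphic and alike in sequence, so reads may be split among them. Of 36 lysosomal genes, 29 were higher and 3 lower (median 0.38), beside 27.4% of all genes called higher. The protease gene CTSL had 182, 142 and 162 in Combo and 27.8, 18.9 and 30.0 in AC220 (2.64), and the ceramidase gene ASAH1 had 14832, 15649 and 15905 in Combo and 5033, 4840 and 4860 in AC220 (1.65, SE 0.046, limma, adjusted p = 1.44e-18). Both were higher in every Combo library. SGSH, the heparan sulphate sulphamidase, had 1906, 1796 and 1630 in Combo and 485, 432 and 459 in AC220 (1.95), and it overlaps another expressed gene. SLC26A11, a sulphate transporter whose gene lies next to SGSH on chromosome 17 (SGSH 80200673 to 80220333, SLC26A11 80220427 to 80253500, hg38), had 545, 531 and 509 in Combo and 74.9, 65.7 and 68.5 in AC220 (2.91). These neighbours were thus both higher. Of 15 subunits of the vacuolar proton pump, 8 were higher and 2 lower, and of 12 sterol efflux genes, 8 were higher and 1 lower.

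**Figure D2:**
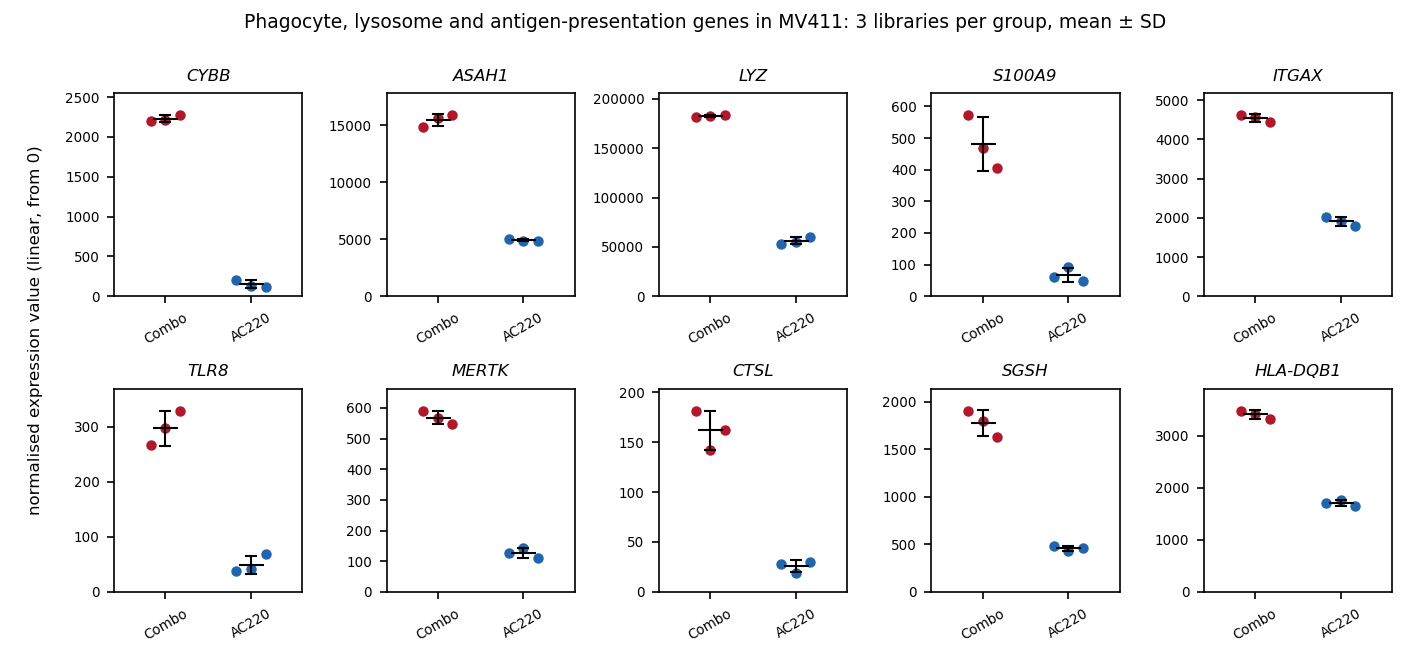
Normalised values (linear axis from 0) of 10 phagocyte, lysosome and antigen-presentation genes in the 3 Combo and the 3 AC220 libraries of MV411, points being libraries and black marks the mean ± SD. Every Combo point lies above every AC220 point, with log2 fold changes from 1.00 for HLA-DQB1 to 3.91 for CYBB.

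Genes of lipid supply were higher for a subset only. Of 25 cholesterol synthesis and uptake genes, 11 were higher and 4 lower, beside 27.4% and 28.1% of all genes. The other 10 were not called, among them HMGCS1, an early enzyme of the pathway. FADS1, a desaturase of polyunsaturated fatty acids, had values of 2927, 2832 and 2670 in Combo and 766, 858 and 915 in AC220 (1.73, SE 0.060, limma, adjusted p = 6.07e-17). Its neighbour FADS2 had 2134, 1914 and 1811 in Combo and 768, 827 and 950 in AC220 (1.20). FADS1 and FADS2 were above the AC220 range in each Combo library, but the annotation has them overlap, so their reads may be shared. Of 14 fatty acid genes, 9 were higher and 2 lower. Among 27 ATF4 targets, 10 were higher and 6 lower. SLC7A11, the cystine importer, had 3112, 3443 and 3449 in Combo and 873, 761 and 877 in AC220 (1.99, SE 0.066), and the pseudokinase TRIB3 was higher by 1.24. The serine enzyme PSAT1 (-1.41) and the receptor VLDLR (-1.51) were lower, so the list moved both ways. Of 22 NRF2 and heme genes, 14 were higher and 2 lower, with the ferritin light chain FTL at 190690, 176940 and 172710 in Combo and 106360, 108870 and 109580 in AC220 (0.73).

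Several biosynthetic groups held more lower than higher genes. Of 24 glycolysis genes, 14 were lower and 7 higher, with the enzyme ALDOC (-1.07) and the lactate transporter SLC16A1 (-0.92) lower and the glucose transporter SLC2A3 (1.15) higher. Of 23 nucleotide synthesis genes, 14 were lower and 3 higher, led by the purine enzyme PAICS, with values of 1498, 1595 and 1595 in Combo and 3684, 3414 and 3523 in AC220 (-1.18, SE 0.045, limma, adjusted p = 3.70e-16). The PAICS groups were wholly apart, and the gene overlaps PPAT (-0.72), with which reads may be shared. Of 33 MYC and ribosome biogenesis genes, 19 were lower and 5 higher, with POLR1A at -0.56, and the higher ones numbered 3 without Combo replicate 1 and 2 with equal totals. Of 17 chaperones, 12 were lower and BAG3 (0.71) was higher, of 20 endoplasmic reticulum stress genes 10 were lower and 2 higher, and of 35 oxidative phosphorylation genes 12 were lower, 4 higher and 19 not called, beside 28.1% of all genes called lower. Cytosolic ribosomal protein genes went the other way, with 42 of 44 higher by small amounts (median 0.25, highest RPS28 at 0.43). Many of them have processed pseudogenes that may take reads.

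Transcripts that report on FLT3 signalling were mixed. PIM1, a kinase gene induced by STAT5, had values of 1477, 1390 and 1310 in Combo and 542, 541 and 562 in AC220 (1.34, SE 0.056, limma, adjusted p = 1.84e-15). SOCS2, another STAT5 target, had 460, 535 and 569 in Combo and 892, 772 and 828 in AC220 (-0.67), and PIM2 (-0.34) was lower while CISH (0.41) was higher. These 4 genes had no overlap between groups, yet they went in opposite directions. In the whole STAT5 list 9 of 17 were higher and 3 lower, beside 27.4% and 28.1% of all genes. Of 17 ERK output genes, 5 were higher and 3 lower, and 9 were not called. DUSP6, a phosphatase that reports ERK activity, had 41.7, 26.4 and 34.9 in Combo and 34.5, 31.8 and 28.2 in AC220, which overlapped (0.10, limma, adjusted p = 0.551), while it averaged 240 ± 24.8 with MI-503 alone and 1240 ± 92.8 in DMSO (SD, n = 3 each).

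Among the largest increases of genes with a mean of at least 100 were several with no place in these groups. GUCY1A2, a subunit of the nitric oxide receptor guanylate cyclase, had values of 99.2, 106 and 116 in Combo and 3.84, 5.97 and 2.82 in AC220 (4.42, SE 0.331, limma, adjusted p = 8.02e-11). OLR1, the receptor for oxidised lipoprotein, had 255, 250 and 229 in Combo and 13.4, 10.9 and 16.0 in AC220 (4.10, SE 0.162). Both were near the detection limit in AC220 and clearly expressed in Combo. The metalloprotease-like ADAMDEC1 (3.20), the lipid-antigen presenter CD1D (2.80), the death-associated kinase DAPK1 (2.76), PID1 (3.60), KIAA1644 (3.45) and OLFML3 (2.76) followed. LOC100507412, whose place on the chromosomes the annotation does not give, had 9050, 8841 and 8968 in Combo and 1144, 1132 and 1181 in AC220 (2.96, SE 0.040).

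The change with MI-503 was then set beside that without AC220, from the MI-503 and DMSO libraries, which share no library with Combo or AC220. Without AC220, 8734 genes (60.6%) were called. The difference between the 2 changes, tested in the same limma fit, passed the threshold for 6133 genes (42.5%), with a larger absolute change in the presence of AC220 for 2590 and a smaller one for 3543. Genes at least 2-fold changed in the same direction in both settings numbered 422, which is 39.5% of the 1068 with AC220 and 34.0% of the 1241 without. Calls in opposite directions were made as well, with 571 genes higher with AC220 and lower without it and 408 the reverse.

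Several regulators of the MLL programme were lower in both settings. MEF2C changed by -2.75 with and -2.81 without AC220, a difference of 0.05 (SE 0.081, limma, adjusted p = 0.627), and PBX3 (-1.69 and -1.81) and HOXA10 (-1.46 and -1.53) also had differences that did not pass the test. UGCG, with -3.01 and -3.07, was another such gene. For BCL2 the decrease was larger with AC220, -2.09 against -1.08 (difference -1.01, SE 0.069, limma, adjusted p = 4.29e-11), as it was for CDK6 (-1.86 and -0.99, difference -0.88) and MYB (-0.76 and -0.34). HOXA9 moved less with AC220 (-1.37 and -1.88, difference 0.51). The list as a whole had 19 lower genes with AC220 and 17 without, and the difference passed the test in 15 of its 21 genes, upwards in 7 and downwards in 8, beside 42.5% of all genes.

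**Figure D3:**
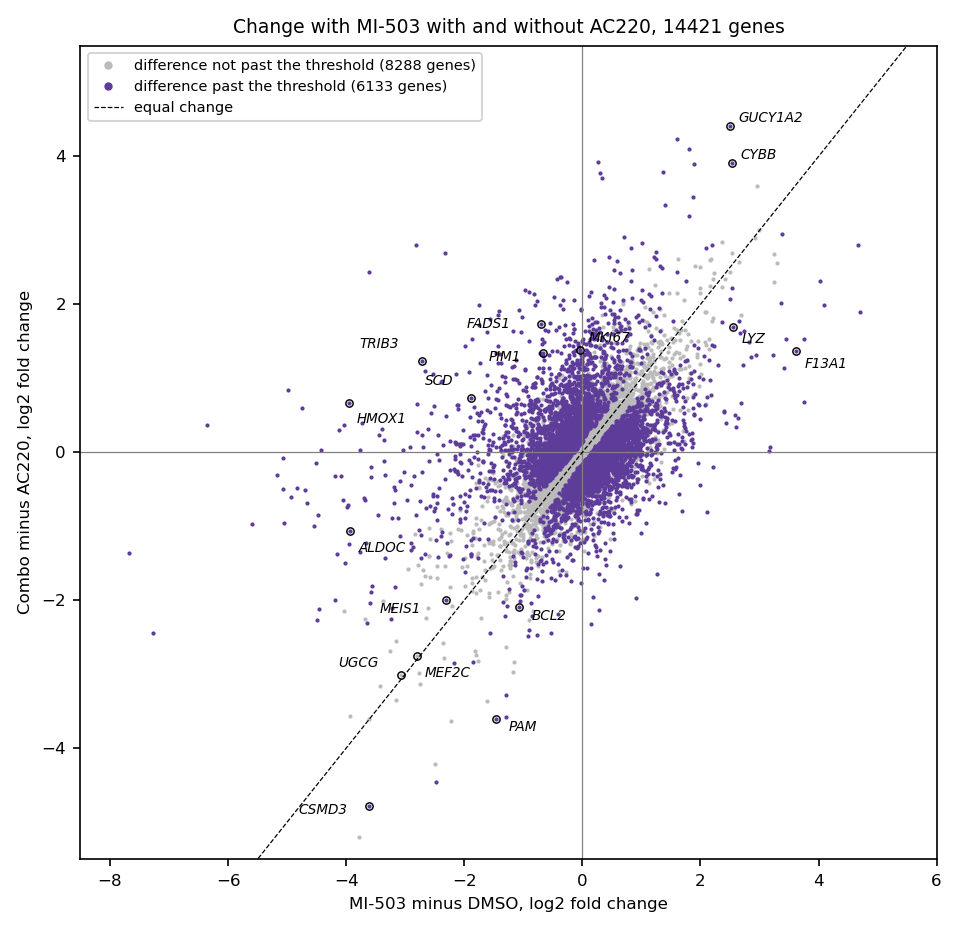
Each point is 1 of 14421 genes, with the log2 fold change of MI-503 over DMSO on the horizontal axis and that of Combo over AC220 on the vertical axis, and purple points mark the 6133 genes whose difference passed the threshold. MEF2C and UGCG lie near the dashed line of equal change, BCL2 and PAM lie below it, and HMOX1, TRIB3 and FADS1 lie in the quadrant that was lower without and higher with AC220.

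The mitosis group separated the 2 settings. Its median change was 1.03 with AC220 and -0.06 without it. Where AC220 was absent, 4 genes were higher and 8 lower, beside 60.6% of all genes called in either direction. The difference was upwards for 28 of 30 genes and downwards for 1, beside 3014 upwards and 3119 downwards of all 14421 genes. MKI67 had a difference of 1.41 (SE 0.074, limma, adjusted p = 4.07e-13) and did not pass the test without AC220 (-0.03, limma, adjusted p = 0.604). Replication genes gave medians of 0.27 and -0.20, with the difference upwards in 26 of 35. Lipid genes separated the settings too: the cholesterol list had a median of 0.14 with AC220 and -1.31 without. Of its 25 genes, 24 were lower without AC220, beside 60.6% of all genes called in either direction. DHCR7, the last enzyme of the pathway, averaged 85.6 ± 13.8 in Combo, 47.7 ± 27.5 in AC220, 742 ± 59.8 with MI-503 alone and 3844 ± 252 in DMSO (SD, n = 3 each). It changed by 0.96 with and -2.37 without AC220 (difference 3.34, SE 0.298, limma, adjusted p = 3.71e-09), and its Combo and AC220 values overlapped, with AC220 replicate 3 at 78.8. Without AC220 replicate 2 its change with AC220 was 0.63. All 25 cholesterol genes had lower means in AC220 than in DMSO, so the changes with and without AC220 began from different levels. Further lists had lower medians without AC220 than with it. These were ATF4 (0.09 with and -0.83 without), glycolysis (-0.16 and -0.79), endoplasmic reticulum stress (-0.15 and -0.65) and ERK output (0.12 and -1.39). Of the 27 ATF4 genes, 26 were lower without AC220.

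**Figure D4:**
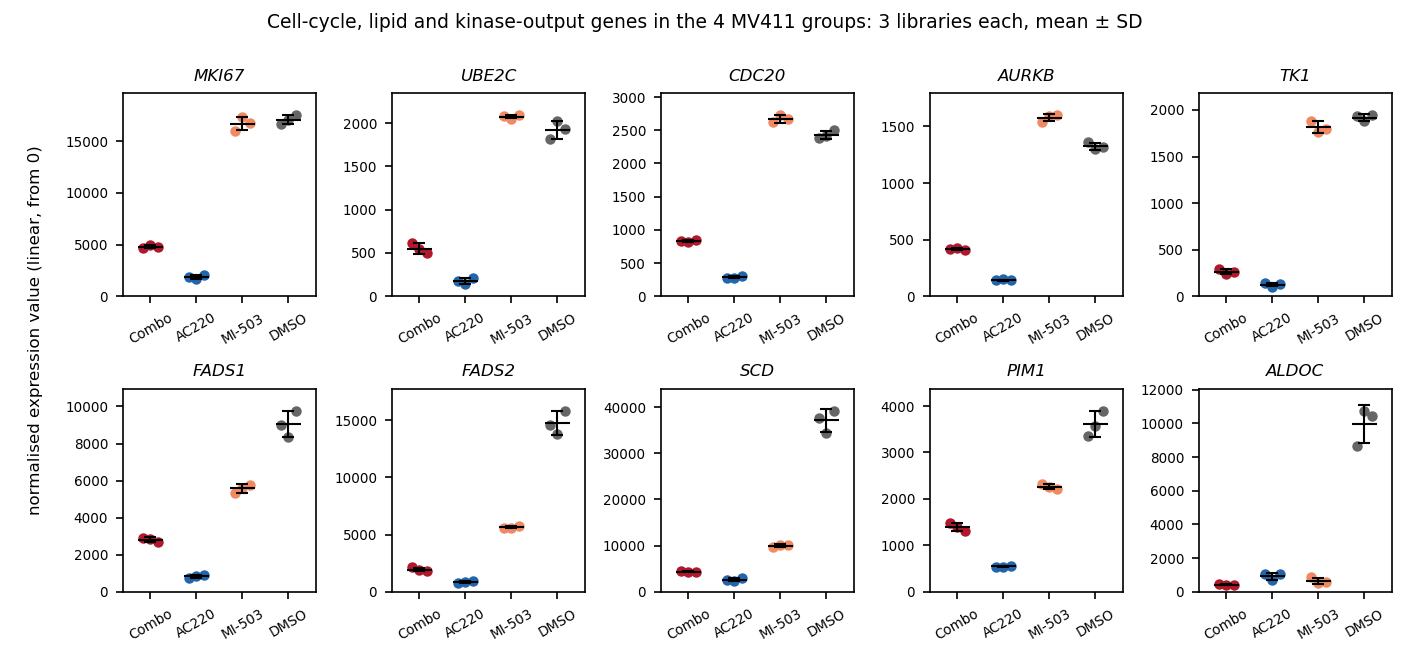
Normalised values (linear axis from 0) of 10 genes in the Combo, AC220, MI-503 and DMSO libraries of MV411, 3 per group, with the mean ± SD in black. MKI67, UBE2C, CDC20, AURKB and TK1 are higher in Combo than in AC220 and far higher in both groups without AC220, while FADS1, FADS2, SCD and PIM1 are higher in Combo than in AC220 but lower with MI-503 than in DMSO.

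Single genes marked the extremes of this contrast. HMOX1, which degrades heme, had values of 535, 486 and 489 in Combo and 321, 198 and 492 in AC220, groups that overlapped, and averaged 153 ± 17.9 with MI-503 alone and 2389 ± 281 in DMSO (SD, n = 3 each). Its change of 0.67 with AC220 (limma, adjusted p = 0.00280) was 0.34 without AC220 replicate 2 and was not called by DESeq2. In the setting without AC220 the change was -3.96. Genes called with AC220 only included the GTPase exchange factor RIN2, with 255, 239 and 243 in Combo and 48.9, 39.8 and 31.9 in AC220 (2.60, against 0.20 without AC220), and the kinase SGK1, with 111, 101 and 121 in Combo and 13.4, 22.9 and 32.8 in AC220 (2.30 against -0.26). Neither gene had overlapping groups. Monocyte genes were divided. LYZ rose more without AC220 (1.70 against 2.55) and so did F13A1 (1.36 against 3.62), SIGLEC1 (1.29 against 2.86) and all 6 of the 9 MHC class II genes whose difference passed the test, whereas CYBB rose more with AC220 (3.91 against 2.54), and ITGAX rose with it and fell without it (1.25 against -0.28). The starting levels differed between the settings here as well. LYZ averaged 56205 in AC220 and 30030 in DMSO, against 182470 in Combo and 176320 with MI-503 alone. F13A1 averaged 1810 in AC220 and 349 in DMSO, against 4658 in Combo and 4299 with MI-503 alone. CYBB averaged 153 in AC220 and 451 in DMSO, against 2230 in Combo and 2619 with MI-503 alone. The part of the starting level was not tested. In the monocyte-macrophage list the difference passed the test upwards for 6 and downwards for 8 of 23 genes, beside 42.5% of all genes.

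**Figure D5:**
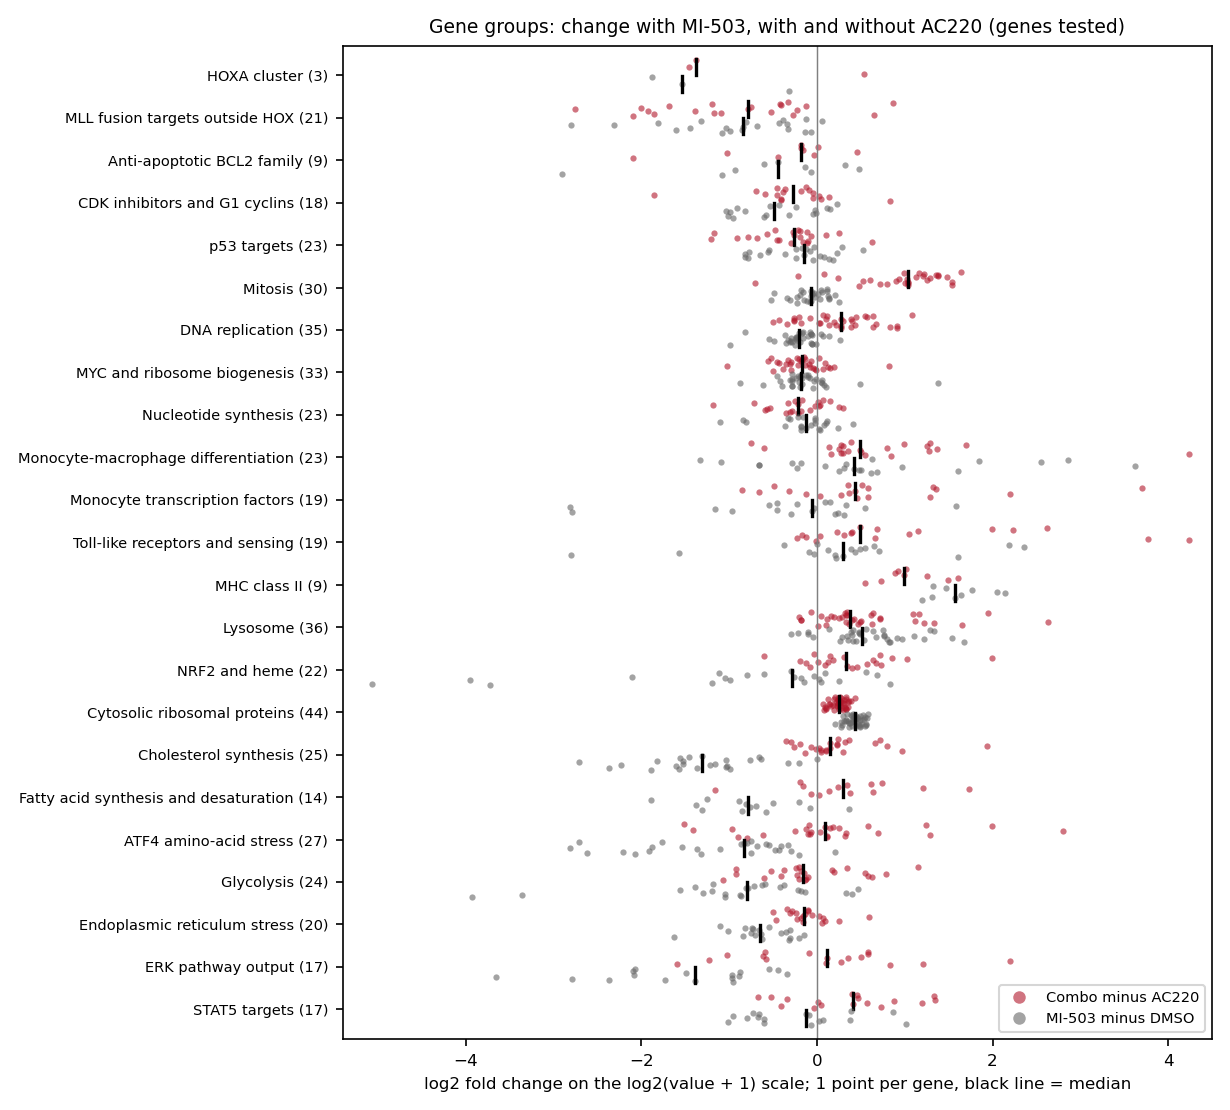
Log2 fold changes of the tested members of 23 gene groups, 1 point per gene, for Combo minus AC220 (red, upper row of each group) and MI-503 minus DMSO (grey, lower row), with the median as a black line. The median of the MLL fusion targets lies left of 0 in both rows (-0.78 and -0.85), that of the mitosis genes right of 0 in the red row and near 0 in the grey row (1.03 and -0.06), and that of the cholesterol genes near 0 in the red row and left of it in the grey row (0.14 and -1.31).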

How the data were processed

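Polyadenylated RNA of MV411 cells, with spike-in RNA added per cell number, was sequenced in paired reads, per the labels' protocols. The deposited table holds a normalised signal per gene in each library. Per the submitters' processing notes, DESeq version 2 and genome build hg38 were used; the aligner, the counter, the annotation and the use of strand are not given in the sources used here. Whole reads could be recovered from the values (100% of values within 0.001 of a whole number), and the scaling factors equalled median-of-ratios factors over genes. Library totals were 23168887 to 26596469 reads, and intervals cover counting error only.

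Genes that reached a value of 10 in 3 or more of the 12 libraries were fitted with limma 3.58.1 in R 4.3.3 on log2(value + 1) with a variance trend, with 1 mean per group, so all 12 libraries share the spread. Contrasts were Combo minus AC220, MI-503 minus DMSO, and their difference. P-values were adjusted by Benjamini-Hochberg over 14421 genes, with a threshold of 0.05. Fold changes are on the log2(value + 1) scale and understate those of low genes. The fit was tested on simulated data. Alternatives were edgeR 4.0.16 and DESeq2 1.42.0 on recovered reads, other pseudocounts, filters and scalings, and leaving out each library. The members and gene lists were chosen with earlier results of these data known. Genes were named by a rule: 25 fixed genes, up to 3 called members per list by size of change with a mean of at least 100, the 12 largest changes per direction, taken from called genes that averaged 100 or more in Combo or AC220 and whose groups did not overlap, and 6 genes each of the opposite and the AC220-only calls, with a mean of at least 100 in any group. Further members, among them those not called, were added as examples after their values were seen. SGSH, MDM2 and BCL2L2 overlap other expressed genes in the annotation, so their reads may be shared. Promoter stretches came from RefSeq. Some genes that the rule would name are not reported here.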

Additional observations from a re-analysis of the deposited data

Results flagged for a closer look

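The change that MI-503 gave with AC220 differed from that without it, by the test of the difference in the limma fit (Benjamini-Hochberg, 0.05), for 6133 genes. The values below are that difference on the log2 scale (with AC220 minus without). They are given for the genes named here where it passed the threshold and was at least 1 in size. A positive value says that the change was further upwards, or less far downwards, with AC220. Cell-cycle genes were on the positive side, with MKI67 at 1.41, UBE2C at 1.53, CDC20 at 1.40, AURKB at 1.28 and TK1 at 1.16, and so was the elongation factor gene ELL2 at 1.10.

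Genes of signalling had differences of 2.01 for PIM1, 2.47 for DUSP6, 2.68 for PHLDA1, 2.06 for SOCS3 and 2.56 for SGK1. DUSP6 was not called with AC220 (0.10, means of 34.4 in Combo and 31.5 in AC220), so its difference reflects the change of -2.37 without AC220. Lipid genes had 3.34 for DHCR7, 1.00 for LBR, 2.18 for STARD4, 2.43 for FADS1, 2.58 for FADS2 and 2.62 for SCD. Metabolic and stress genes had 2.79 for SLC7A11, 3.95 for TRIB3, 4.63 for HMOX1, 2.34 for SLC2A3, 2.86 for ALDOC, 1.04 for P4HA1, 1.71 for VEGFA, 1.90 for BNIP3, 1.23 for HERPUD1 and 1.16 for DNAJB9. For HMOX1, DHCR7 and PHLDA1 the change with AC220 rested in part on AC220 replicate 2, without which it was 0.34, 0.63 and 0.27.

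Phagocyte genes were found on both sides. Positive differences were 2.63 for CD14, 1.09 for CEBPB, 1.37 for CYBB, 1.01 for ITGA6, 1.54 for ITGAX, 2.32 for ICAM1, 2.37 for TLR7, 1.90 for CXCL8, 1.21 for CXCL16, 2.03 for CMKLR1, 3.46 for IL1B, 2.20 for LILRB3, 1.42 for CTSL and 1.69 for ATP6V0A1. The value of CD14 rests on 2 reads in AC220, so it depends on the pseudocount and is no bound. Negative ones were -2.25 for F13A1, -1.58 for SIGLEC1 and -1.05 for HLA-DQB1. CYBB and F13A1 began from different levels in AC220 and DMSO, as given above.

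Among the other genes, BCL2 (-1.01), EDA2R (-1.24), CSMD3 (-1.17), LOC101927497 (-1.99), PAM (-2.14), LOC339862 (-1.49) and SLC9A7 (-2.40) were negative. GUCY1A2 (1.92), OLR1 (2.30), KIAA1644 (1.59), ADAMDEC1 (1.39), SLC26A11 (2.20), DAPK1 (1.93), SULF2 (3.41), RHOH (3.31), RIN2 (2.41) and CDA (1.96) were positive.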

How the results depend on the processing

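The count of 8007 called genes was 7425 with DESeq2, 8048 with edgeR, 8208 when libraries were set to equal totals and 7228 to 7869 when 1 library was left out. Between 88.1% and 99.6% of the calls were shared with each of the 17 alternatives. The counts over all genes stayed within 1.5 times, though the 1068 genes at least 2-fold apart became 742 with a pseudocount of 8, 719 with a minimum value of 50 and 1424 with no filter. With equal totals, 3437 genes were higher and 4771 lower. The replicate numbers did not pair the libraries (correlations of deviations of -0.08 to 0.12), and a fit with the number as a replicate block called 8008. Among 169 named genes, no direction reversed, and the call was lost for PHLDA1 without AC220 replicate 2, for HMOX1 without the variance trend and with DESeq2, for EPOR without Combo or AC220 replicate 1, for KRT8 without AC220 replicate 3 and for GP1BA under 8 settings. For the difference between the changes with and without AC220, 11 of the 169 named genes lost the call under some setting and 11 gained it. Of the 47 list medians, 22 moved under some setting by more than the SD between Combo libraries. Of the lists, the DOT1L, HOXB, hypoxia and epithelial medians, all near 0, changed sign under some settings. Of the 3606 genes with the lowest values 37.7% were called, and of the 3605 with the highest 67.2%; the part of depth in this was not tested. Of the counts within lists, without Combo replicate 1 the MYC list had 3 higher genes in place of 5, the anti-apoptotic list 3 lower in place of 5, the hypoxia list 2 lower in place of 4, the erythroid list 2 higher in place of 4 and 1 lower in place of 2, and the proton pump and NRF2 lists 1 lower in place of 2 each.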

Other observations

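Small nucleolar RNAs, which guide modification of ribosomal RNA and are mostly cut from introns, were seldom called higher. Of 138 tested, 47 were lower in Combo, beside 28.1% of all genes, SNORD49B was higher and the others were not called, with a median of -0.33. Without AC220, 49 were lower and 2 higher, beside 60.6% of all genes called in either direction, with a median of -0.36. Their summed value was 5287 to 5397 in Combo and 6087 to 6182 in AC220, without overlap. It was 7074 to 7557 with MI-503 alone and 8792 to 9556 in DMSO. Libraries were made from polyadenylated RNA, so most of these short RNAs are outside the measured pool, and the part of host-gene reads was not tested.

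Chemokines and their receptors were higher in 10 and lower in 4 of 20, beside 27.4% and 28.1% of all genes. CXCL16 had 367, 329 and 302 in Combo and 118, 130 and 118 in AC220 (1.43). Leukocyte integrin and adhesion genes were higher in 8 and lower in 6 of 18, with ITGA6 at 360, 435 and 454 in Combo and 108, 99.5 and 94.8 in AC220 (2.03). Hypoxia genes were higher in 5 and lower in 4 of 13, with VEGFA (1.14) and P4HA1 (-1.41) at the ends, and 2 were lower without Combo replicate 1. Of 8 replication-dependent histone genes, 3 were lower and the other 5 were not called. In the erythroid and megakaryocyte list, 4 of 7 were higher and 2 lower (2 and 1 without Combo replicate 1), and ITGA2B had 302, 234 and 220 in Combo and 983, 950 and 823 in AC220 (-1.87). The B cell list held 1 lower gene of 6, CD79A (-0.90), and the epithelial and fibroblast list 1 higher (KRT8, 0.37) and 1 lower (PDGFRB, -0.66) of 3.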
